A study of Homo sapiens with 9 samples.

Results

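The 10 genes described here belong to the S100 family of calcium-binding proteins and were followed in MCF-10A, an immortal line of human mammary epithelium that does not form tumours. They were taken as a named set, S100A2, S100A4, S100A6, S100A7, S100A8, S100A9, S100A10, S100A11, S100A14 and S100P, and all 10 were found by gene identifier among the 60609 genes counted. RNA sequencing covered 3 genotypes of PIK3CA, which encodes the p110-alpha catalytic subunit of the lipid kinase PI3K, with 3 libraries each. The E545K and H1047R lines carry a knock-in of 1 of these changes, and the parental line is WT. Until the last day the E545K and H1047R lines were kept without EGF (0 ng/ml) and the WT line with 20 ng/ml EGF, all in 5% horse serum with insulin, hydrocortisone and cholera toxin. For the final 24 h all 3 lines were in 0.2 ng/ml EGF and 1% charcoal-stripped serum, still with insulin, hydrocortisone and cholera toxin. Genotype and EGF history therefore cannot be told apart in either comparison with WT, whereas the E545K and H1047R lines share their medium. The number of clones behind each knock-in line is not given in the sources used here.

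S100 proteins are small proteins with EF-hand calcium-binding loops that mostly work as dimers. Calcium binding opens a surface through which they hold partners such as annexins and myosin. Most of their genes sit in a cluster on chromosome 1 inside the epidermal differentiation complex, and in stratified epithelia some members are constant components of basal cells while others are turned on during differentiation, wounding or inflammation.

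Total gene counts were 95533991 to 134245702 in E545K, 377093507 to 605972919 in H1047R and 95091894 to 136132315 in WT, and 3 counts, the most that a count of 0 allows for independent counts, were 0.0318 CPM (counts on a per-million scale of the TMM-normalised library) in the shallowest library. Mates were counted singly, so 1 fragment can give 2 counts and this limit is then too low. The H1047R libraries were counted in a table of their own, held a smaller share of counts in protein-coding genes (77.6% to 78.1%, against 85.2% to 85.8% in E545K and 85.9% to 86.0% in WT) and varied more between replicates (biological coefficient of variation 0.212, against 0.0289 in E545K and 0.0328 in WT). Genotype H1047R and its table cannot be told apart. PIK3CA RNA averaged 38.1 CPM in E545K, 42.7 CPM in H1047R and 46.1 CPM in WT. These counts hold no information on the allele, so they do not check the knock-ins. All 6 basal epithelial markers were above 1 CPM in every line, with the keratin KRT5 at 12965 CPM in E545K, 16289 CPM in H1047R and 13940 CPM in WT. Of the 6, 1 rose (LAMB3) and 4 fell in E545K against WT (edgeR quasi-likelihood test, adjusted p under 0.05), beside 17.7% and 18.9% of all genes tested. In H1047R against WT 1 rose (KRT5) and 4 fell, LAMB3 among them, beside 27.4% and 28.1%. In H1047R against E545K 4 rose and 2 fell, beside 25.9% and 27.3%.

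S100A8, S100A9, S100A7 and S100P, all weakly expressed in WT, rose in both knock-in lines and further in H1047R than in E545K. S100A4 rose in E545K, and S100A2, the most abundant member per kilobase in WT, fell in H1047R. S100A6, S100A10, S100A11 and S100A14 differed between lines by at most 1.58-fold. In E545K against WT, 7 of the 10 were called (edgeR quasi-likelihood test, adjusted p under 0.05), beside 36.6% of all 26412 genes tested, and of these 5 rose and 2 fell, beside 17.7% and 18.9%. In H1047R against WT 9 were called, beside 55.5% of all genes, and 4 rose and 5 fell, beside 27.4% and 28.1%. In H1047R against E545K 8 were called, beside 53.2%, and 4 rose and 4 fell, beside 25.9% and 27.3%. All 5 rises in E545K and all 4 in each H1047R comparison were at least 2-fold, a size reached by rises of 4.52% of all genes in E545K against WT, 10.0% in H1047R against WT and 7.74% in H1047R against E545K. Falls of at least 2-fold were made by 0 members in E545K against WT and by S100A2 alone in the other comparisons, beside 2.58%, 7.39% and 7.24% of all genes. The libraries of the groups did not overlap for 10 members in E545K against WT (54.2% of all genes), 9 in H1047R against WT (60.1%) and 8 in H1047R against E545K (58.8%). The median log2 fold change of the 10 genes was 0.70 in E545K against WT, −0.093 in H1047R against WT and −0.14 in H1047R against E545K, where all genes tested had medians of 0.0031, 0.021 and 0.016. The 2 comparisons with WT share its libraries. All 10 genes passed the filter on low counts, S100A7 only through the knock-in libraries. A higher S100A7 level in a knock-in line than in WT was therefore bound to follow and adds nothing to these counts. RNA of whole cultures cannot tell a higher level in each cell from a larger share of cells with the gene on.

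**Figure D1:**
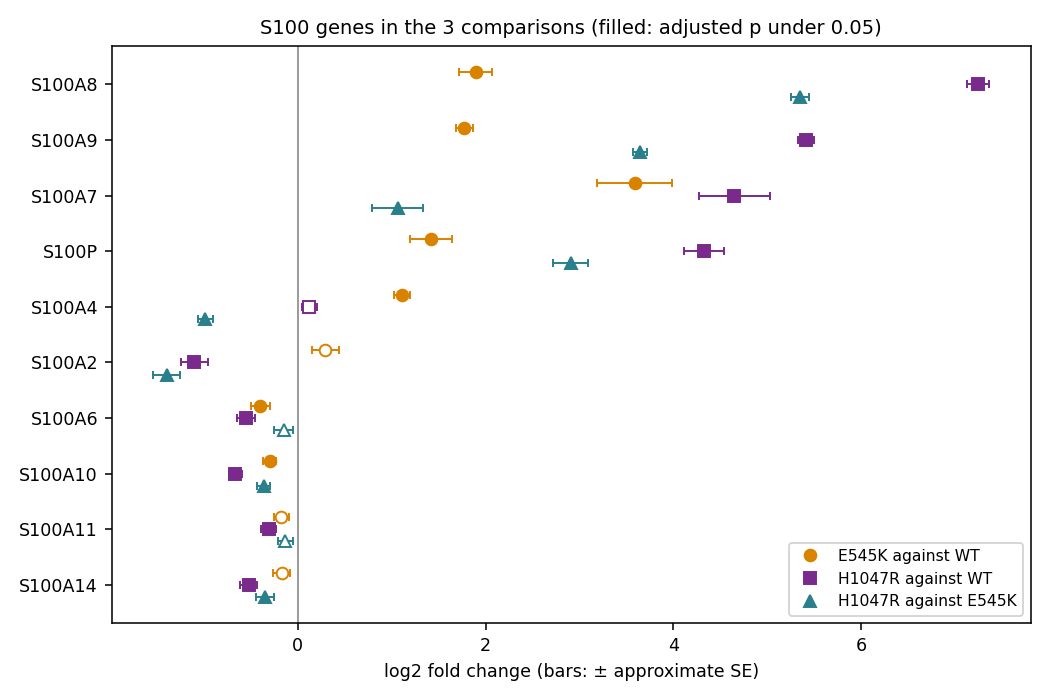
Log2 fold change of each S100 gene with its approximate standard error in E545K against WT, H1047R against WT and H1047R against E545K; filled symbols mark an adjusted p under 0.05. S100A8, S100A9, S100A7 and S100P lie right of 0 in all 3 comparisons, S100A4 is higher in E545K than in both other lines, and the abundant genes lie close to 0 apart from S100A2 in H1047R.

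S100A8 and S100A9 form calprotectin, a secreted heterodimer that withholds zinc and manganese from microbes and is known from neutrophils and from activated keratinocytes. S100A8 (ENSG00000143546.10, chromosome 1, 153390032 to 153391073, minus strand, hg38) was at 0.911, 0.833 and 0.797 CPM in E545K and at 30.8, 35.0 and 38.5 CPM in H1047R, against 0.223, 0.211 and 0.255 CPM in WT. S100A9 (ENSG00000163220.11, chromosome 1, 153357854 to 153361023, plus strand) was at 5.02, 5.63 and 5.26 CPM in E545K and at 71.0, 65.4 and 62.0 CPM in H1047R, against 1.74, 1.44 and 1.42 CPM in WT. For both genes every H1047R library lay above every E545K library, and every E545K library above every WT library. The WT libraries held 30, 20 and 24 counts of S100A8, so its folds against WT rest on few counts. In H1047R, S100A8 rose 152-fold (log2 fold change 7.24 ± 0.12 SE, adjusted p = 3.6e-15) and S100A9 rose 42.6-fold (5.41 ± 0.08, adjusted p = 1.46e-15). In E545K the rises were 3.72-fold (1.89 ± 0.18, adjusted p = 7.68e-07) and 3.41-fold (1.77 ± 0.09, adjusted p = 1.16e-09). Between the knock-in lines, S100A8 was 40.8-fold and S100A9 12.5-fold higher in H1047R than in E545K (5.35 ± 0.10 and 3.64 ± 0.07). S100A8 had the 21st largest log2 fold change of all 26412 genes in H1047R against WT and S100A9 the 61st, and in E545K against WT their places were 568 and 665.

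In the balance of the RNAs of the 2 calprotectin subunits, H1047R stood apart from E545K and WT. Per kilobase of exon, S100A9 RNA was 9.78 ± 1.06 times S100A8 RNA in E545K and 2.996 ± 0.545 times in H1047R, against 10.5 ± 1.73 times in WT (mean ± SD, n = 3). The H1047R libraries, at 2.50 to 3.58, did not overlap the E545K libraries, at 8.56 to 10.5, or the WT libraries, at 8.68 to 12.1. With 3 libraries a group the exact two-sided permutation test gave p = 0.1 for each of these pairs, which is the smallest it can give, and p = 0.4 for E545K against WT.

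S100A7, or psoriasin, is an antimicrobial protein of inflamed and differentiating epidermis, and it was nearly silent in WT. S100A7 (ENSG00000143556.9, chromosome 1, 153457744 to 153460651, minus strand) was at 0.575, 0.611 and 0.638 CPM in E545K and at 1.86, 1.012 and 0.939 CPM in H1047R, against 0.0297, 0.0634 and 0.0636 CPM in WT, where the 3 libraries held 16 counts in all. It rose 12.02-fold in E545K (3.59 ± 0.40, adjusted p = 4.4e-06) and 25.1-fold in H1047R (4.65 ± 0.38, adjusted p = 5.97e-08), and H1047R was 2.09-fold above E545K (1.06 ± 0.27, adjusted p = 0.0037). Its levels stayed low in every line, and reads can be shared with its close copy S100A7A, so its folds are less certain than those of S100A8. S100A7 passed the filter on low counts only through the knock-in libraries, so a rise against WT was bound to follow. Among the 10 genes S100A7 had the largest log2 fold change in E545K against WT, at place 108 of all genes.

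S100P, the member that lies outside the cluster (ENSG00000163993.7, chromosome 4, 6693878 to 6697170, plus strand), binds the membrane linker ezrin and is known from placenta and from several carcinomas. It was at 4.51, 5.14 and 4.60 CPM in E545K and at 50.4, 29.4 and 27.0 CPM in H1047R, against 1.89, 1.60 and 1.80 CPM in WT. The groups did not overlap, and H1047R replicate 1 stood well above the other H1047R libraries. S100P rose 2.68-fold in E545K (1.42 ± 0.23, adjusted p = 0.000153) and 20.1-fold in H1047R (4.33 ± 0.21, adjusted p = 2.31e-10), and was 7.501-fold higher in H1047R than in E545K (2.91 ± 0.19, adjusted p = 7.04e-09). Without H1047R replicate 1 its log2 fold change was 3.99 against WT and 2.58 against E545K. Its partner ezrin (EZR) rose as well, by 0.19 ± 0.04 on the log2 scale in E545K and by 0.76 ± 0.04 in H1047R.

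**Figure D2:**
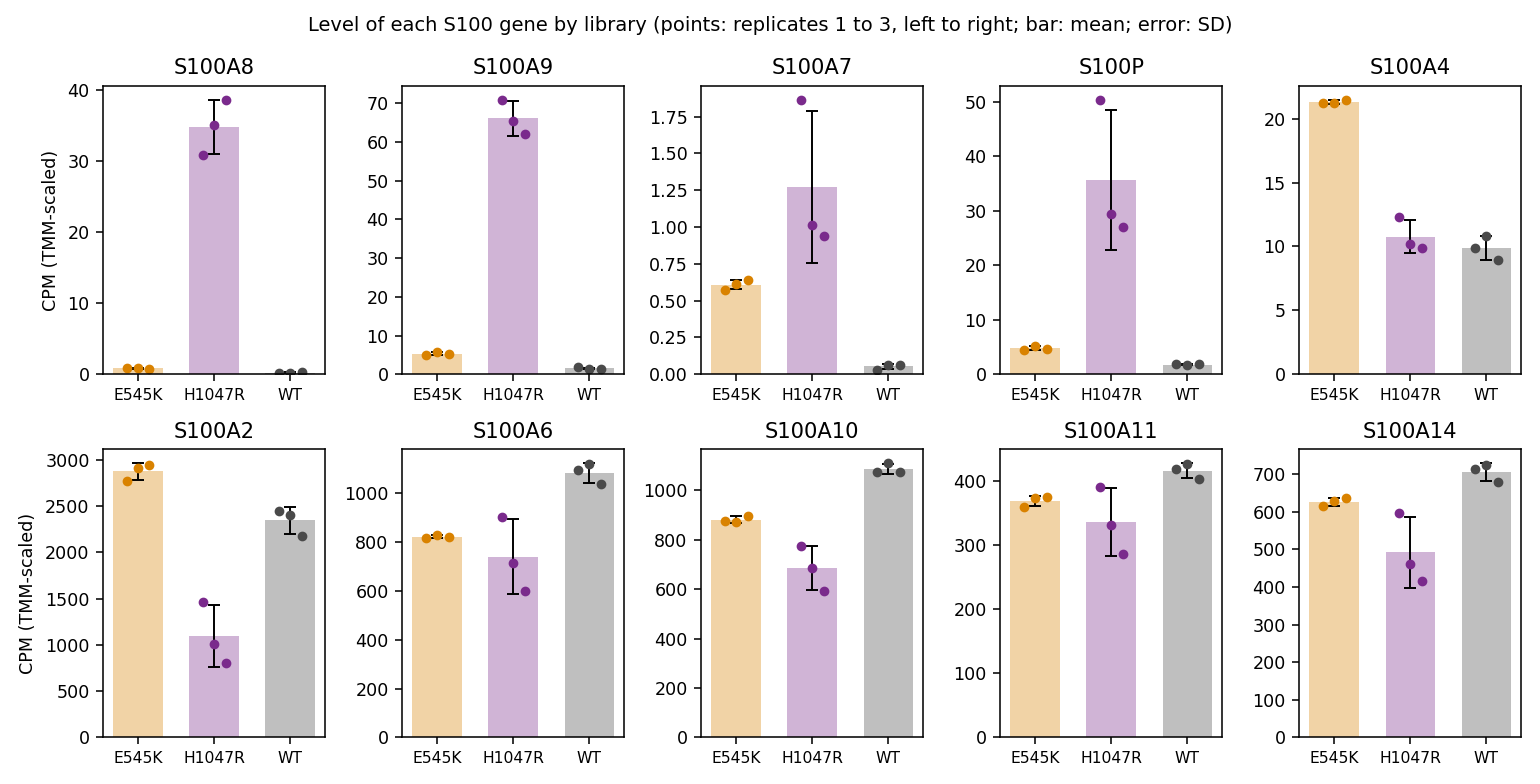
TMM-scaled CPM of each S100 gene in the E545K, H1047R and WT libraries, each panel with its own axis from 0; points are replicates, bars are means and error bars are SD (n = 3). The H1047R points of S100A8 lie between 30.8 and 38.5 CPM, S100A4 stands at 21.2 to 21.5 CPM in E545K only, and H1047R replicate 1 is the highest H1047R library for 9 of the 10 genes.

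The 250 bases before the RefSeq start site are given here for the 4 genes that rose in all 3 comparisons. Capitals mark the motif TATAAA, the TATA box of the core promoter (GRCh38.p14, gene strand, 5′ to 3′).
S100A8 (chr1:153391074-153391323, minus strand): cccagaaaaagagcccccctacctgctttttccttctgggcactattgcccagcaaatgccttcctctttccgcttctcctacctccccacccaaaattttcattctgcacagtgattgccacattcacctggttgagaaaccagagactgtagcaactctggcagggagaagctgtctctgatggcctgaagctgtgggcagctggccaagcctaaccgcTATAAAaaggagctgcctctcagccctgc
S100A9 (chr1:153357604-153357853, plus strand): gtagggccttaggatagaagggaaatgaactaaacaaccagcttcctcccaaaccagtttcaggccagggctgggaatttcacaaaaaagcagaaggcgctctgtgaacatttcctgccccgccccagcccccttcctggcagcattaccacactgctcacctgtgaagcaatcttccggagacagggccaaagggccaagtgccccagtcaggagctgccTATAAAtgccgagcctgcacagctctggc
S100A7 (chr1:153460652-153460901, minus strand): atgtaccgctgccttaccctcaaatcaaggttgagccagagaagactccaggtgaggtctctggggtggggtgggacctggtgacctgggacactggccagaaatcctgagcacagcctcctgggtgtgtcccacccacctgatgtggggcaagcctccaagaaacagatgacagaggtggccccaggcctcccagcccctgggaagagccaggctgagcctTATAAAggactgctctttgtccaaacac
S100P (chr4:6693628-6693877, plus strand): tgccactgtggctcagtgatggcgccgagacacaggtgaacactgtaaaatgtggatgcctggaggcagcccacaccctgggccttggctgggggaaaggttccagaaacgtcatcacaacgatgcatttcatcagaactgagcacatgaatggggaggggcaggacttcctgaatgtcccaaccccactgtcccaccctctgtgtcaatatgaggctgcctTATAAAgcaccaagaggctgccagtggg
All 4 hold TATAAA, first base at position −29 from the start in S100A8 and S100A9 and −28 in S100A7 and S100P. Among the other members S100A4 also holds it, at −31, and the promoters of S100A2, S100A6, S100A10, S100A11 and S100A14 do not hold this exact string. S100A6 and S100A14 hold TATAAG shortly before the start, which differs in its last letter only. A missing exact match therefore need not mean a missing TATA box. On either strand the motif occurred in 10.7% of all 35116 promoter windows of this length. TGANTCA, read by AP-1, was found before S100A2 only among the 10 (6.57% of all windows), TTGCNNAA, read by C/EBP factors, before S100A11 only (9.05%), and TTCNNNGAA, read by STAT factors, before 0 of the 10 (6.57%). These matches describe the letters of 1 window per gene, and S100A2 and S100A8 have further start sites in RefSeq.

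S100A4 went its own way. It binds the heavy chain of non-muscle myosin IIA and is best known from motile and mesenchymal cells. S100A4 (ENSG00000196154.12, chromosome 1, 153543613 to 153550136, minus strand) was at 21.2, 21.2 and 21.5 CPM in E545K and at 12.3, 10.2 and 9.86 CPM in H1047R, against 9.87, 10.8 and 8.97 CPM in WT. E545K stood apart from both other lines, while the H1047R and WT libraries overlapped. It rose 2.16-fold in E545K (1.11 ± 0.08, adjusted p = 7.79e-08), and H1047R fell by 0.99 ± 0.08 on the log2 scale against E545K (adjusted p = 8.94e-08). H1047R against WT was at 0.12 ± 0.08 (adjusted p = 0.229), and 1 alternative, the fit on protein-coding genes alone, called it (0.19, adjusted p = 0.0367). MYH9, the myosin heavy chain it binds, fell in both knock-in lines, by 0.92 ± 0.04 in E545K and by 1.03 ± 0.04 in H1047R.

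S100A3, which lies inside the span of S100A4 without sharing its exons and is known from hair cuticle, also stood highest in E545K but lowest in H1047R. It was at 19.9, 18.6 and 19.6 CPM in E545K and at 5.95, 6.20 and 7.32 CPM in H1047R, against 11.5, 11.4 and 10.3 CPM in WT. None of the 3 groups overlapped. It rose by 0.81 ± 0.08 in E545K (adjusted p = 9.04e-07) and fell by 0.77 ± 0.08 in H1047R (adjusted p = 5.78e-07), and the difference between the knock-in lines was −1.57 ± 0.08 (adjusted p = 2.71e-10).

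S100A2 is a largely nuclear member of basal epithelial cells. S100A2 (ENSG00000196754.12, chromosome 1, 153561108 to 153567890, minus strand) was at 2769, 2905 and 2944 CPM in E545K and at 1463, 1007 and 809 CPM in H1047R, against 2450, 2407 and 2174 CPM in WT. Every H1047R library lay below every WT library, and every E545K library above. In H1047R it fell by 1.10 ± 0.14 (adjusted p = 1e-05), or 2.14-fold, and it was 2.63-fold lower in H1047R than in E545K (−1.39 ± 0.14, adjusted p = 1.13e-06). E545K against WT was at 0.29 ± 0.14 and did not pass in the fit over all 9 libraries (adjusted p = 0.124). With E545K and WT alone in the fit the value was 0.30 with adjusted p = 6.7e-13, and a model with a variance for each genotype gave 0.29 with adjusted p = 0.000142, and leaving out H1047R replicate 1 (0.29, adjusted p = 0.000236) or replicate 3 (0.29, adjusted p = 0.0104) gave the call as well.

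The remaining 4 genes were abundant in all lines. S100A10, the light chain that joins annexin A2 into a membrane-bound tetramer (ENSG00000197747.9, chromosome 1, 151982915 to 151993859, minus strand), was at 875, 873 and 897 CPM in E545K and at 774, 688 and 595 CPM in H1047R, against 1074, 1111 and 1074 CPM in WT. The 3 groups were fully separate, E545K between the others. S100A10 fell by 0.30 ± 0.07 in E545K (adjusted p = 0.00269), by 0.66 ± 0.07 in H1047R (adjusted p = 8.45e-07) and by 0.36 ± 0.07 in H1047R against E545K (adjusted p = 0.000379). Annexin A2 (ANXA2) fell beside it, by 0.26 ± 0.05 in E545K and by 0.52 ± 0.05 in H1047R. The S100A10 to ANXA2 ratio per kilobase was 3.95 ± 0.0778 in E545K and 3.67 ± 0.139 in H1047R, against 4.07 ± 0.0275 in WT (SD, n = 3), with no overlap between the lines (exact two-sided permutation p = 0.1 for each pair, the smallest possible).

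S100A6, or calcyclin, a member linked to proliferation and the partner of CACYBP (ENSG00000197956.10, chromosome 1, 153534599 to 153536244, minus strand), was at 814, 826 and 820 CPM in E545K and at 904, 715 and 599 CPM in H1047R, against 1092, 1117 and 1037 CPM in WT. It lay below WT in all 6 knock-in libraries, and the knock-in lines overlapped. S100A6 fell by 0.40 ± 0.10 in E545K (adjusted p = 0.00517) and by 0.55 ± 0.10 in H1047R (adjusted p = 0.000241). H1047R against E545K was at −0.15 ± 0.10 (adjusted p = 0.219), and without H1047R replicate 1 at −0.32 (adjusted p = 2.25e-05).

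S100A14, an epithelial member (ENSG00000189334.9, chromosome 1, 153614255 to 153616986, minus strand), was at 615, 628 and 636 CPM in E545K and at 597, 462 and 415 CPM in H1047R, against 714, 724 and 679 CPM in WT. S100A11, which binds annexin A1 (ENSG00000163191.6, chromosome 1, 152032506 to 152047907, minus strand), was at 360, 373 and 375 CPM in E545K and at 391, 332 and 286 CPM in H1047R, against 419, 427 and 404 CPM in WT. For both, all knock-in libraries lay below all WT libraries. In H1047R, S100A14 fell by 0.52 ± 0.09 (adjusted p = 0.000189) and S100A11 by 0.31 ± 0.08 (adjusted p = 0.00376). In E545K both were at −0.17 (adjusted p = 0.165 for S100A14 and 0.103 for S100A11), and with E545K and WT alone in the fit both passed, again at −0.17 (adjusted p = 8.59e-10 for S100A14 and 2.03e-09 for S100A11). Both also passed without H1047R replicate 1 (adjusted p = 0.000696 for S100A14 and 0.00234 for S100A11) and without H1047R replicate 3 (adjusted p = 0.0294 and 0.00409). Against E545K, H1047R had S100A14 lower by 0.35 ± 0.09 on the log2 scale (adjusted p = 0.00485), while S100A11 was at −0.13 ± 0.08 (adjusted p = 0.166), or −0.25 without H1047R replicate 1 (adjusted p = 0.000119).

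Over all genes together, replicates spread more widely in H1047R (biological coefficient of variation 0.212) than in E545K (0.0289) or WT (0.0328). Only the H1047R libraries came from a separate count table, so the wider spread cannot be assigned to the mutation. The coefficient of variation over 3 libraries was larger in H1047R than in WT for 9 of the 10 genes, at 30.7% against 6.34% for S100A2 and 20.8% against 3.81% for S100A6, and the exception was S100A9, at 6.88% against 11.7%. In E545K it was below that of WT for all 10. H1047R replicate 1 was the highest of its group for 9 genes and the lowest for S100A8. Without it no log2 fold change of the 10 genes moved by more than a factor of 1.30 on the linear scale. Shares of all genes with the same order of spread or the same highest library were not counted. The numbers of S100 genes given here therefore do not set the 10 apart from other genes.

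Per kilobase of exon, 5 genes were abundant in every line and 5 were not. In WT the order was S100A2 (1516 ± 96.1 CPM per kb), S100A6 (1114 ± 42.5), S100A10 (1073 ± 21.3), S100A11 (642 ± 18.4), S100A14 (553 ± 18.6), S100A4 (10.4 ± 0.968), S100P (3.74 ± 0.318), S100A9 (2.67 ± 0.312), S100A8 (0.258 ± 0.0251) and S100A7 (0.108 ± 0.0402), and only the ranges of S100A6 and S100A10 overlapped between neighbours. In E545K S100A2 stood first at 1858 ± 59.6 CPM per kb, and only the neighbours S100P (10.1 ± 0.723) and S100A9 (9.25 ± 0.533) overlapped. In H1047R the 5 abundant genes ran into one another, from S100A6 (761 ± 159 CPM per kb) through S100A2 (707 ± 217), S100A10 (677 ± 88.9) and S100A11 (518 ± 81.0) to S100A14 (385 ± 73.9), each overlapping the next. Below them S100A9 (115 ± 7.94), S100P (75.6 ± 27.3) and S100A8 (39.0 ± 4.32) stood above S100A4 (11.4 ± 1.39) and S100A7 (2.62 ± 1.06), whereas in WT S100A4 stood above all of these.

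The summed level of the 10 genes was 5603 ± 124 CPM in E545K and 3494 ± 738 CPM in H1047R, against 5647 ± 233 CPM in WT (SD, n = 3). The H1047R sums, 2842 to 4296 CPM, lay below all others (exact two-sided permutation p = 0.1 against either line, the smallest possible), while E545K and WT overlapped (p = 0.7). S100A2 made up 51.3% ± 0.526 of the sum in E545K and 30.9% ± 2.88 in H1047R, against 41.5% ± 1.05 in WT. S100A8 made up 1.04% of the H1047R sum and S100P 1.00%. S100A9 made up 0.0946% ± 0.00447 in E545K and 1.93% ± 0.265 in H1047R, against 0.0271% ± 0.00277 in WT.

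**Figure D3:**
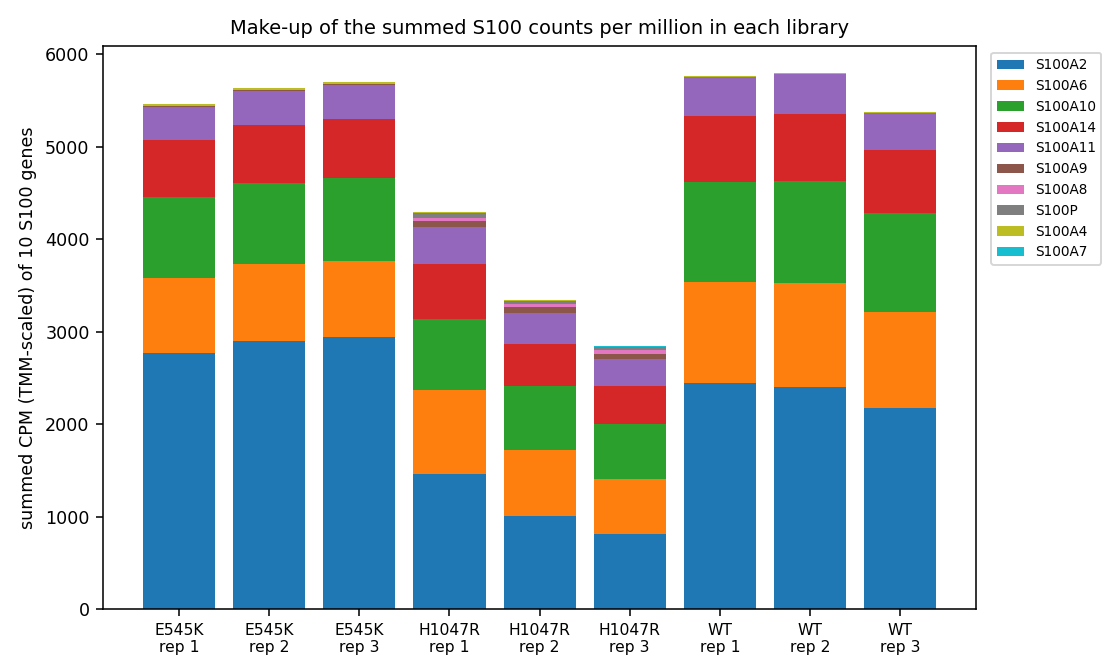
Stacked TMM-scaled CPM of the 10 S100 genes in each E545K, H1047R and WT library. The H1047R columns reach 2842 to 4296 CPM, below all E545K and WT columns, with S100A2 (bottom segment) at 809 to 1463 CPM.

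Of 10 further S100 genes, 7 passed the filter on low counts. Beside them, 17.7% of all genes tested rose and 18.9% fell in E545K against WT. The shares were 27.4% and 28.1% in H1047R against WT, and 25.9% and 27.3% in H1047R against E545K. In E545K 2 rose (S100A3 and S100A1, 0.46 ± 0.13) and S100A13 fell (−0.26 ± 0.09). In H1047R against WT 3 rose (S100A12, S100A7A and S100A1) and 3 fell (S100A3, S100A13 by 0.44 ± 0.09 and S100A16 by 0.24 ± 0.05). S100A1, a member known from heart muscle, rose by 0.98 ± 0.12. In H1047R against E545K 3 rose (S100A12, S100A7A and S100A1) and 3 fell (S100A3, S100A5 and S100A16). The S100A5 call rests on few counts, 26, 27 and 36 in H1047R, against 42, 7 and 16 in E545K, and its libraries overlapped (adjusted p = 0.0376). S100A12, the calgranulin C of granulocytes, held 0 counts in every E545K library, 108, 108 and 130 counts in H1047R and 0, 2 and 3 counts in WT. S100A7A held 46, 90 and 66 counts in H1047R, 2, 0 and 0 in E545K and 6, 3 and 0 in WT. S100A12 and S100A7A passed the filter only through the H1047R libraries, so a rise there was bound to follow. S100A13 shares 33.5% and S100A1 18.3% of exon bases with overlapping genes, among them each other on opposite strands, so their counts are uncertain. S100B, S100G and S100Z held at most 27 counts in any library.

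Along chromosome 1 the changes fell into 2 stretches. From PGLYRP3, a peptidoglycan-recognition protein gene, to S100A7, over 163 kb, 7 genes were tested and all 7 rose in H1047R against WT and against E545K. They were PGLYRP3, PGLYRP4, S100A9, S100A12, S100A8, S100A7A and S100A7, with log2 fold changes of 2.34 to 7.24 against WT. S100A12 and S100A7A passed the filter on low counts only through the H1047R libraries. Their rises in H1047R were therefore bound to follow and add nothing to the count. S100A7 passed it only through the knock-in libraries, so its rises against WT add nothing either. In E545K against WT 3 of the 7 passed, S100A9, S100A8 and S100A7, while PGLYRP3 was at 0.12 ± 0.33 and PGLYRP4 at 0.72 ± 0.34. From S100A6 to S100A1, over 98.4 kb, 11 genes were tested, S100A2, S100A4, S100A6 and S100A14 among them. Of these 4 rose and 2 fell in E545K against WT, 2 rose and 7 fell in H1047R against WT, between −1.10 and 0.98, and 1 rose and 7 fell in H1047R against E545K. Among all genes tested, 17.7% rose and 18.9% fell in E545K against WT, and 27.4% and 28.1% in H1047R against WT. In H1047R against E545K the shares were 25.9% and 27.3%. S100A10 and S100A11 lie farther off on the same arm, on the PGLYRP3 side. The borders of these stretches were drawn after the values were seen.

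**Figure D4:**
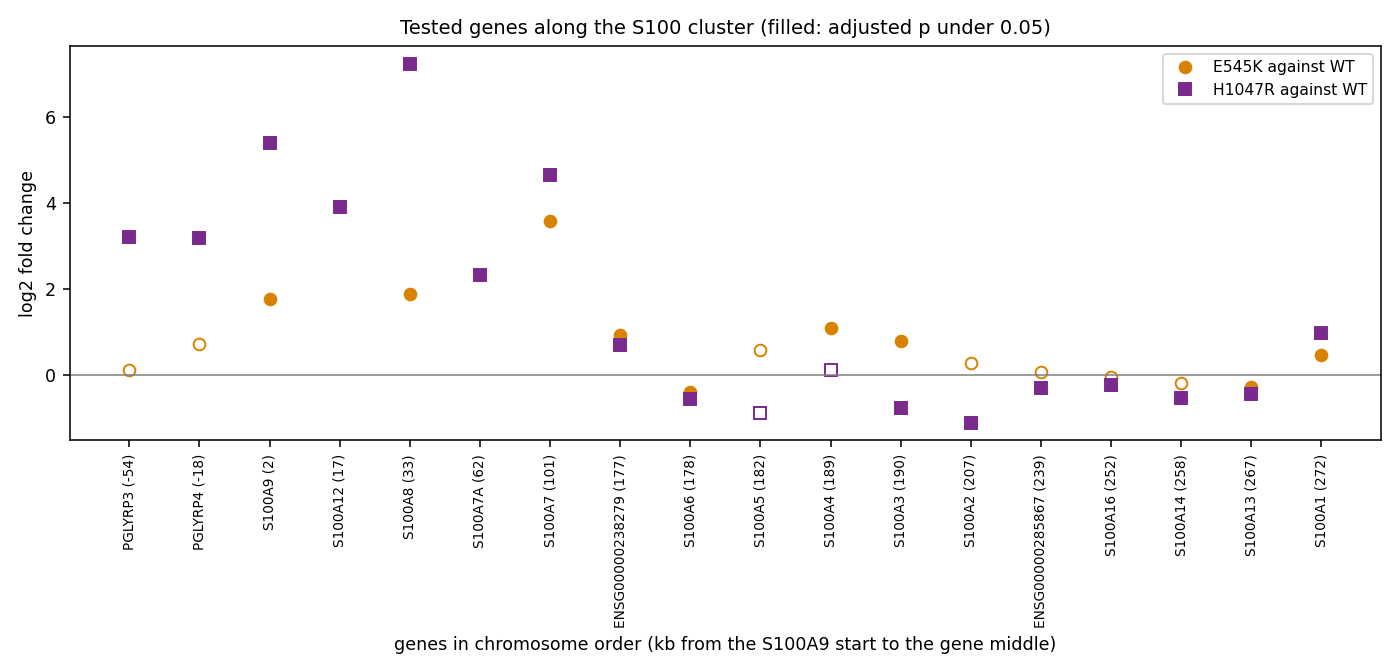
Log2 fold change of every tested gene from PGLYRP3 to S100A1 in chromosome order, for E545K against WT (circles) and H1047R against WT (squares), with the distance of each gene's middle from the S100A9 start in kb; filled symbols mark an adjusted p under 0.05, and S100A12 and S100A7A have no E545K symbol because no E545K library held more than 3 counts. The squares of the 7 genes from PGLYRP3 to S100A7 lie at 2.34 or above and those of the 11 genes to their right lie between −1.10 and 0.98.

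Apart from PGLYRP3 and PGLYRP4, the named genes beside the cluster did not share the steep rises. Of 13 named neighbours that are not S100 genes, PGLYRP3 and PGLYRP4 included, 12 were tested. In H1047R against WT 3 rose and 6 fell, beside 27.4% and 28.1% of all genes, with a median of −0.11. Apart from PGLYRP3 (3.22 ± 0.28) and PGLYRP4 (3.18 ± 0.30) the largest change was a fall of the natriuretic peptide receptor NPR1 (−1.90 ± 0.16). In E545K against WT 1 rose and 2 fell, beside 17.7% and 18.9% of all genes. These were the zinc transporter SLC39A1 at −0.35 ± 0.04, the RNA-binding factor ILF2 at 0.18 ± 0.05 and DENND4B at −0.17 ± 0.04. In H1047R against E545K 4 rose and 5 fell, beside 25.9% and 27.3% of all genes. Among them were PGLYRP3 at 3.10 ± 0.28, PGLYRP4 at 2.46 ± 0.28 and, downwards, NPR1 at −1.61 ± 0.16.

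The S100 fused-type genes, which carry an S100-like domain before long repeats and serve the cornifying cell, were mostly higher in H1047R. Of 7 such genes 5 were tested, and in H1047R against WT 4 rose and 0 fell, TCHHL1 by 1.82 ± 0.18, hornerin (HRNR) by 1.75 ± 0.18, trichohyalin (TCHH) by 1.69 ± 0.25 and filaggrin (FLG) by 1.16 ± 0.14, beside 27.4% of all genes called higher. FLG2 was at 0.66 ± 0.51 (adjusted p = 0.291). In E545K against WT TCHHL1 rose by 1.79 ± 0.19, whereas HRNR fell by 1.008 ± 0.21 (adjusted p = 0.00144) and FLG by 0.42 ± 0.15 (adjusted p = 0.042). In H1047R against E545K 3 rose and 0 fell, HRNR by 2.76 ± 0.20, FLG by 1.58 ± 0.15 and TCHH by 1.08 ± 0.24, beside 25.9% of all genes called higher. TCHHL1 was at 0.026 ± 0.16 (adjusted p = 0.906) and FLG2 at 0.94 ± 0.51 (adjusted p = 0.138) in that comparison. FLG shares 12.4% of its exon bases with an antisense gene, and the counts are without strand.

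Of 15 binding partners and receptors of S100 proteins 14 were tested. In E545K against WT 5 rose and 5 fell, beside 17.7% and 18.9% of all genes, with a median of −0.056. In H1047R against WT 2 rose and 9 fell, beside 27.4% and 28.1%, with a median of −0.27. In H1047R against E545K 2 rose and 6 fell, beside 25.9% and 27.3%, AHNAK by 0.91 ± 0.08 upwards and ANXA6 (−2.18 ± 0.09) and ANXA1 (−0.92 ± 0.05) downwards, with a median of −0.045. ANXA1, the partner of S100A11, rose by 0.68 ± 0.06 in E545K and fell by 0.23 ± 0.05 in H1047R, ANXA6 rose by 0.27 ± 0.09 in E545K and fell by 1.91 ± 0.09 in H1047R, and ANXA5 rose by 0.23 ± 0.06 in E545K and fell by 0.62 ± 0.06 in H1047R. ANXA11, a partner of S100A6, fell by 0.59 ± 0.04 in E545K and by 0.63 ± 0.04 in H1047R, as ANXA2 also fell in both. The giant scaffold AHNAK, which binds the S100A10 and annexin A2 complex, rose by 0.82 ± 0.08 in H1047R and was at −0.09 ± 0.08 in E545K. The calprotectin receptor AGER was at 0.60 CPM in E545K and 0.68 CPM in H1047R, against 0.69 CPM in WT, and TLR4 did not pass the filter.

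Since S100A8, S100A9 and S100A12 are also genes of neutrophils and monocytes, 9 myeloid markers were read beside them. Their summed level was 12.7 to 13.2 CPM in E545K and 8.63 to 10.2 CPM in H1047R, against 16.4 to 17.1 CPM in WT. Most of it was CD68, at 7.04 CPM in E545K and 5.40 CPM in H1047R, against 10.9 CPM in WT, and CD14, at 5.03 CPM in E545K and 2.53 CPM in H1047R, against 5.16 CPM in WT. CD68 shares 85.6% of its exon bases with other genes, so its counts are uncertain. Markers at 1 CPM or more numbered 2 of 9 in E545K, 3 of 9 in H1047R and 2 of 9 in WT. CSF3R was at 0 in all H1047R libraries, AIF1 at 0 in all E545K and WT libraries, and the leukocyte gene PTPRC averaged 0.03 CPM in E545K and 0.07 CPM in H1047R, against 0.08 CPM in WT. The integrin gene ITGAM averaged 1.496 CPM in H1047R, against 0.36 CPM in WT (log2 fold change 2.05 ± 0.21). The part of myeloid cells in the S100A8, S100A9 and S100A12 values was not tested. The 6 fibroblast markers summed to 67.0 to 70.0 CPM in E545K and 69.5 to 85.9 CPM in H1047R, against 93.7 to 97.3 CPM in WT, and LUM was at 0 in all H1047R libraries. The lower sums came from DCN, at 7.76 CPM in E545K and 13.1 CPM in H1047R, against 47.0 CPM in WT. COL1A1, the other abundant marker, rose in both, to 59.5 CPM in E545K and 66.6 CPM in H1047R, against 47.4 CPM in WT. The part of fibroblasts in the S100A4 values was not tested.

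The genes whose profile over the 9 libraries was nearest to each member were found by the root mean square difference of centred log2 CPM, among 10897 genes. S100A8 was nearest to AZGP1, a zinc-binding secreted glycoprotein (0.62), and to the long noncoding RNA ENSG00000268739 (0.70), and S100A9 to IGFL1 (0.33) and the peptide transporter SLC15A2 (0.36). S100P was nearest to PDZK1IP1 (0.27) and the scavenger receptor CD36 (0.33), and S100A7 to the phosphodiesterase PDE3B (0.35) and the protocadherin PCDHA8 (0.40), which shares exons with its cluster. The nearest to S100A4 were ENSG00000256646 (0.073) and the chaperonin subunit CCT6A (0.075), both on chromosome 7, and the nearest to S100A2 were FGFBP1 (0.11) and the replication helicase subunit MCM6 (0.11). The abundant genes had closer neighbours, PRICKLE3 (0.055) and S100A13 (0.064) for S100A6, DMKN (0.037) and TALDO1 (0.039) for S100A10, COX4I1 (0.033) and NAP1L1 (0.039) for S100A11, and GADD45GIP1 (0.036) and BASP1 (0.042) for S100A14.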

How the data were processed

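RNA of 9 libraries was measured after ribosomal RNA depletion with paired reads, per the labels' protocols. The deposited values are raw gene counts, made by featureCounts 2.0.0 with exons of GENCODE 32 on hg38, without strand, with each mate counted by itself and reads counted for every gene they overlap, per the file headers. Trim Galore 0.4.0, STAR and SAMtools 1.5 are named in the submitters' processing notes without settings. WT and E545K share a table, in which the E545K columns are headed as mutant and the WT columns as parental, and H1047R has its own. All count columns were used. Of 60609 identifiers, 60295 matched GENCODE 44 names. Exon bases shared with other genes were 2.37% for S100A6 and 0% for the other 9 members.

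Counts were tested with edgeR 4.0.16 (R 4.3.3), filterByExpr, TMM scaling and 1 quasi-likelihood model with a coefficient for each genotype, fitted to the 9 libraries together, with Benjamini-Hochberg adjustment over 26412 genes. Standard errors are approximate, the log2 fold change over the square root of F. The groups share 1 estimate of the spread for each gene. The wider spread of the H1047R libraries therefore also enters the standard errors and p-values of E545K against WT. The code was tested on simulated data. Alternatives used DESeq2 1.42.0, limma 3.58.1, other scalings, filters and samples. Replicate pairs differed by 3.73 to 182 times the counting variance, so none was a plain copy of another. Mates counted singly add to that variance, so these values cannot tell technical repeats from separate cultures. The labels do not give separate cultures, so p-values reflect library-to-library spread, possibly technical. Floors cover counting error only. Members and lists were chosen with earlier results of these data known. The named genes are the members, the further S100 genes, up to 3 called genes per list and comparison with 1 called the other way, and the 2 nearest profiles per member. ANXA2, EZR, AGER, FLG, FLG2, KRT5, ITGAM, PTPRC, ANXA5, CSF3R, AIF1, TLR4, CD68, CD14, DCN, COL1A1 and LUM were added after their values were seen. Promoter sequences are from RefSeq (GRCh38.p14) and were found for all 10 members, taking the start nearest the counted gene.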

Additional observations from a re-analysis of the deposited data

Results flagged for a closer look

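Cell type markers aside, the E545K and H1047R lines moved in opposite directions against WT in 7 genes of the lists, each past the threshold. The difference between the knock-in lines passed as well (edgeR quasi-likelihood test). Among the markers LAMB3 did the same, higher in E545K and lower in H1047R than in WT (H1047R against E545K −1.50). None of them is among the 10 S100 genes followed. H1047R against E545K was at −1.57 for S100A3, −0.92 for ANXA1, −0.85 for ANXA5, −2.18 for ANXA6 and −0.31 for ILF2, all higher in E545K and lower in H1047R than in WT. It was at 1.58 for FLG and 2.76 for HRNR, which were lower in E545K and higher in H1047R than in WT. ILF2 passed narrowly in H1047R against WT (−0.13, edgeR quasi-likelihood test, adjusted p = 0.0452), and its libraries overlapped there. How many of all genes tested moved in opposite directions was not counted. Of all genes, 36.6% were called in E545K against WT, 55.5% in H1047R against WT and 53.2% in H1047R against E545K. The H1047R table and its larger spread cannot be told apart from the genotype in these differences.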

How the results depend on the processing

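Across 19 alternatives in each comparison, the number of S100 genes called and the number of all genes called stayed within 1.5 times of the reported numbers. No S100 gene called as reported lost its call or changed sign in an alternative that tested it; S100A7 was not tested under the stricter filter. Calls were added in 17 of the gene and alternative pairs in E545K against WT (S100A2, S100A11 and S100A14), in 1 in H1047R against WT (S100A4) and in 6 in H1047R against E545K (S100A6 and S100A11). They came from fits without some or all H1047R libraries, a variance for each genotype (chosen after seeing the data), no filter on low counts, library totals or protein-coding genes alone, and the cause was not tested. With a variance for each genotype, 6 rose and 4 fell in E545K against WT. With library totals only, 66.1% of all calls in E545K against WT were higher, where 48.3% were as reported, and in H1047R against E545K 33.2%, where 48.7% were. The median of all genes was then at 0.096 and −0.12, and S100A6 (−0.30, adjusted p = 0.00555) and S100A11 (−0.28, adjusted p = 0.000955) passed in H1047R against E545K. DESeq2, over 52994 genes, put that median at −0.10 in H1047R against WT and −0.13 in H1047R against E545K, with the same numbers of S100 genes higher and lower.

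Replicates with the same number deviated with correlations of −0.0348 to 0.0227, so the numbers do not pair the libraries. With the replicate block 7 S100 genes were called in E545K against WT, 9 in H1047R against WT and 8 in H1047R against E545K, as without it, and 9441, 14394 and 13731 of all genes. Low counts limit S100A5 in all lines, S100A7 and S100A8 in WT, and S100A12 and S100A7A in E545K and WT.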
